A study of Homo sapiens with 6 samples.

Results

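The ribosome biogenesis factors described here are 46 listed genes whose products work in the nucleolus on the synthesis, modification, cleavage and assembly of ribosomal RNA. They were matched by gene symbol and Ensembl identifier among the 57905 genes of the count table, and the matching used no measured value. All 46 were found, and all 46 were among the 16622 genes that passed the filter on low counts and were tested. RNA-SEQ was made on NALM6 cells, an established human line of B-cell precursor acute lymphoblastic leukemia. The DMSO group held 3 libraries of cells given the solvent, and the THZ1 group held 3 libraries of cells given 500 nM of THZ1, with RNA taken after 24 h in both. THZ1 binds CDK7 covalently and inhibits this kinase, which phosphorylates RNA polymerase II and activates other cyclin-dependent kinases. A single cell line, dose and time were measured, and the comparison asks how the level of each transcript differed between the THZ1-treated and the solvent-treated cells.

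Ribosome production starts when RNA polymerase I transcribes a long precursor from the ribosomal DNA repeats. Small nucleolar ribonucleoproteins then modify the precursor, a large assembly called the small subunit processome cuts out the part for the small subunit, and further factors assemble the large subunit before both are exported. Growing and leukemic cells make many of these factors at a high level, and a good part of the genes are known targets of the transcription factor MYC.

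The libraries held 11015480 to 11164840 counts on genes with DMSO and 7876402 to 8314306 with THZ1. Mitochondrial genes took 4.32% to 4.37% of the counts with DMSO and 12.6% to 13.6% with THZ1. The 10 listed markers of B-cell precursors were all present, with a summed level of 3890 to 4050 CPM (counts relative to a common library total) with DMSO and 2095 to 2169 CPM with THZ1. None of the 6 T-cell markers reached 1 CPM in any library and CD8A was at 0 in all of them. Summed myeloid markers went from 3.88 to 4.59 CPM with DMSO to 17.3 to 18.4 CPM with THZ1, and 4 of those 5 genes reached 1 CPM in some library. Summed erythroid markers went from 0.164 to 0.253 CPM to 3.61 to 3.81 CPM, with 1 of 5 reaching 1 CPM, and none of the 3 epithelial markers reached it. The part of these shifts in the results below was not tested.

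Most ribosome biogenesis factors were lower after THZ1 treatment, and a smaller set was higher. With edgeR's quasi-likelihood test, adjusted by Benjamini-Hochberg over all genes tested, 32 of the 46 members were lower, 9 were higher and 5 were not called at an adjusted p below 0.05. Much of the transcriptome moved as well: 84.5% of all genes tested were called, 41.1% lower and 43.5% higher. Among the protein-coding genes tested, 83.9% were called, 47.6% lower and 36.3% higher. The members thus had 69.6% lower and 19.6% higher calls. Their median log2 fold change was -0.57, beside 0.03 over all genes tested and -0.20 over the protein-coding genes tested. A fall of at least 1.5 on the log2 scale was seen in 10 members, where 12.9% of all genes tested and 13.3% of the protein-coding ones fell that far. Those 10 were DDX18, GNL3, NCL, WDR75, RRP9, DKC1, WDR12, NPM1, EBNA1BP2 and NOC3L. Their number was 6 with upper quartile factors or when each library had to hold at least 10 counts, and 7 with DESeq2 or RLE factors. Only NOP56 and PPAN were higher by that much, where 24.6% of all genes tested and 15.3% of the protein-coding ones were. The values of the 3 libraries of each group did not overlap in 33 members that were lower, against 41.3% of all genes tested and 47.9% of the protein-coding ones. They did not overlap in 9 that were higher, against 43.4% and 36.4%. The groups overlapped for WDR43, TSR1, NOB1 and BOP1. All CPM values were scaled by the trimmed mean of M values (TMM), which compares each gene with the bulk of the others. The RNA content per cell was not measured. A change relative to the other genes and a change in molecules per cell therefore cannot be told apart. Neither the labels nor the methods say whether the replicates came from separate cultures, so p-values measure the spread between these libraries, which may be technical.

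**Figure D1:**
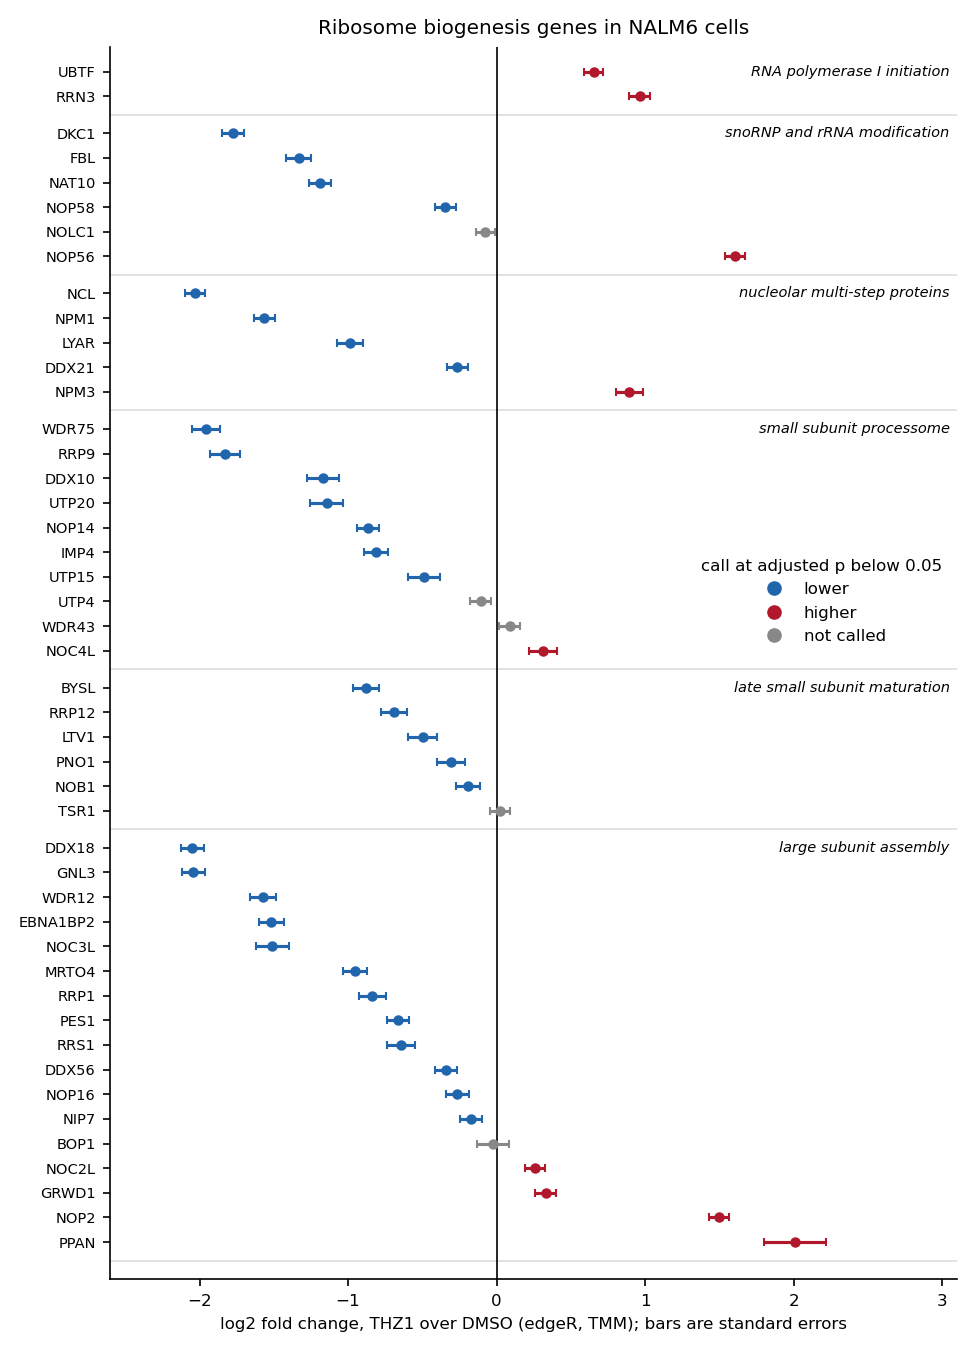
Log2 fold change of each of the 46 members, THZ1 over DMSO, on the horizontal axis, with bars of 1 standard error from edgeR and members grouped by role. Blue points were called lower (32), red points higher (9) and grey points were not called (5), and every role except RNA polymerase I initiation spans a range from clear falls to values near or above 0.

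Counted together, the members lost a sizeable share of the library. As CPM of all counts on genes, without any scaling factor, their sum was 9987, 9815 and 10089 in the DMSO libraries and 6069, 5875 and 5840 in the THZ1 libraries. The means were 9963 ± 139 and 5928 ± 124 (SD, n = 3 each), a ratio of 1.68, and the groups did not overlap. An exact two-sided permutation test gave p = 0.1, the smallest value that 3 against 3 allows. Nucleolin and nucleophosmin carried much of this: NCL and NPM1 together gave 3532 ± 63.4 CPM with DMSO and 857 ± 31.3 with THZ1 (SD, n = 3), a ratio of 4.12. Without them the sum of the other members was 6432 ± 75.3 with DMSO and 5071 ± 94.1 with THZ1 (SD, n = 3), a ratio of 1.27. The TMM factors were 1.06 to 1.11 with DMSO and 0.915 to 0.920 with THZ1. All of these ratios would therefore be smaller on the TMM scale used for single genes.

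The make-up of the group changed as well. With DMSO, NCL held 18.8% of all member counts, NPM1 16.6% and NOP56 3.81%. With THZ1, NOP56 held 16.4%, NPM1 7.95% and NCL 6.51%. Per length, on the FPKM scale of the second deposited table, NPM1 ranked highest with DMSO at 1183 ± 47.1, followed by NCL at 744 ± 38.2 and NOLC1 at 290.2 ± 16.2 (SD, n = 3). With THZ1, NOP56 ranked highest at 516 ± 20.7 FPKM, followed by NPM1 at 329 ± 17.5 and NPM3 at 321 ± 7.96, and the last 2 differed by less than the SD of NPM1. FBL, UTP20 and BOP1 have no value in that table, so this order covers 43 members.

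A shared promoter motif gave a further view of the list. The E-box, the letters CACGTG, is the site at which MYC and related helix-loop-helix proteins bind DNA. It reads the same on both strands, and it was searched in the RefSeq promoter windows of the GRCh38.p14 build, each 300 bases long and running from 250 before to 50 after the annotated start. Of the 40 members with a window, 19 held an E-box (47.5%). The share was 12.5% of the 10713 genes tested that had a window and 25.5% of 102 other ribosome biogenesis genes. It was 8.77% of all 27305 genes with a window, and 7.26% of all 35116 windows held an E-box. Among all genes tested the share hardly differed with the response, at 13.1% of those called lower and 11.8% of those called higher. No window was found for NOP58, NOLC1, RRP12, BOP1, RRS1 and DDX18.

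Among the 19 members with an E-box, 16 were lower, 1 was higher (NOP2) and 2 were not called (UTP4 and WDR43), with a median log2 fold change of -0.88. Among the 21 without, 12 were lower, 8 were higher and 1 was not called, with a median of -0.19. Over all genes tested 41.1% were lower and 43.5% higher, and over the protein-coding ones 47.6% and 36.3%. The members and the motif were chosen with earlier results of these data known. The share and this split are therefore descriptions, and a link between the E-box and the response was not tested. Counted per window, the 19 members had 21 E-box matches, with 2 each in IMP4 and EBNA1BP2. Of the 21 matches, 17 began within 40 bases of the start. Over all windows, 27.7% of 2821 matches lay that close. The 40 members had 49 windows, and a site inside the windows of different starts counts more than once. These are therefore not counts of distinct E-boxes. A match of letters is a description of the window, and binding was not measured.

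The following stretches of 30 bases around the E-box, in capitals, are shown for 8 members that span the range of responses. They were chosen after the values were seen. GNL3, RRP9, FBL, NAT10 and UTP20 fell by 1.14 or more on the log2 scale, PES1 by 0.66, UTP4 was not called, and NOP2 rose. Each is written 5′ to 3′ on the strand of its gene, and each sequence, taken from RefSeq, matched GRCh37 at a single place.
GNL3: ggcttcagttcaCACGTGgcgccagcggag
RRP9: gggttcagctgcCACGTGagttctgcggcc
FBL: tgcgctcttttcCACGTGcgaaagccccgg
NAT10: aatgcgcttgcgCACGTGctgtctaccagt
UTP20: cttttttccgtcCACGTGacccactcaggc
PES1: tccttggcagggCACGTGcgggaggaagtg
UTP4: agagcgcgcgcgCACGTGgggccggggcgg
NOP2: gctaggtccggattgCACGTGgagggccgc

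In GRCh37 these stretches lie at chr3:52720042-52720071 on the plus strand (GNL3), chr3:51975908-51975937 on the minus strand (RRP9) and chr19:40336996-40337025 on the minus strand (FBL). Those of NAT10 and UTP20 are at chr11:34127149-34127178 and chr12:101673861-101673890, both on the plus strand. PES1 has its stretch at chr22:30987867-30987896 on the minus strand, UTP4 at chr16:69166524-69166553 on the plus strand and NOP2 at chr12:6677408-6677437 on the minus strand. Counted from the RefSeq start, the E-box began 7 bases downstream in GNL3 and FBL, 14 in PES1 and 36 in NOP2. It began at -5 in RRP9, -10 in UTP20, -15 in NAT10 and -16 in UTP4. The bases on either side of the motif differ between the genes.

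**Figure D2:**
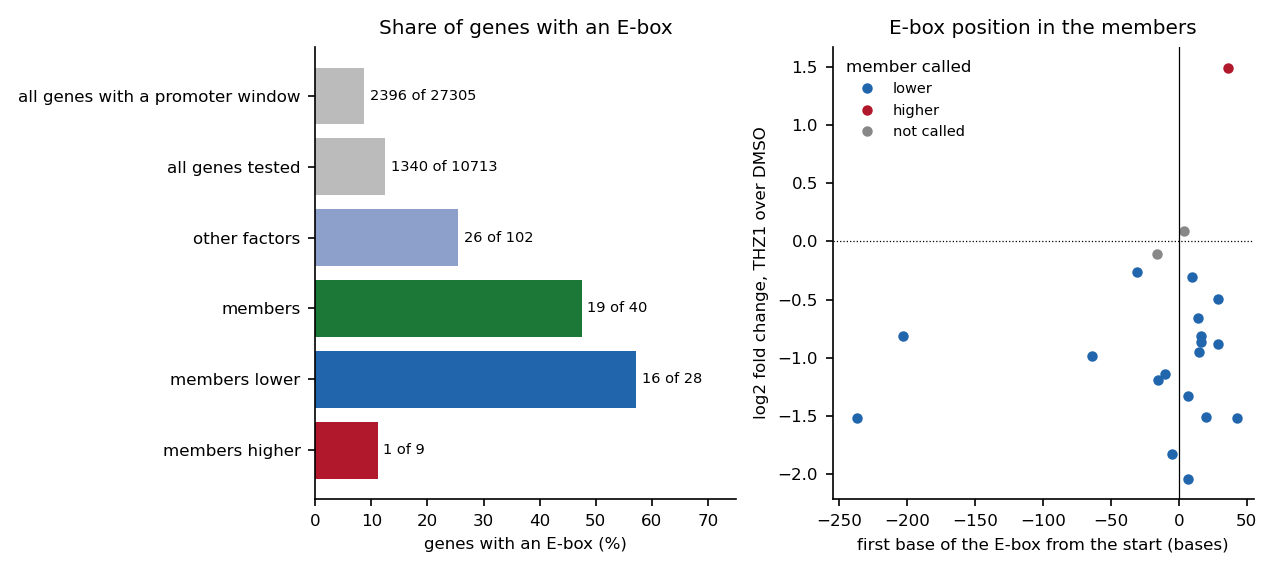
Left, the percentage of genes with an E-box in the promoter window, with the number of genes beside each bar; right, the log2 fold change of each E-box member against the first base of its E-box, counted from the start. The members' share of 47.5% stands above the 12.5% of all genes tested, and 17 of 21 matches, counted per window, sit within 40 bases of the start.

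Other motifs were searched in the same windows. The core of ETS factor sites, CCGGAAG on either strand, was in 37.5% of the members with a window, 22.1% of the genes tested and 46.1% of the other factors. TATAAA, the letters of the TATA box, was in 5% of the members and 8.13% of the genes tested. Neither motif overlaps the letters of the E-box.

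Both members that act at the start of RNA polymerase I transcription, UBTF and RRN3, were higher. Of 6 other genes of this role, 4 were lower and none was higher. Across all genes tested, 41.1% were lower and 43.5% higher. UBTF, which binds the ribosomal DNA promoter and keeps the repeats open, had 277, 269 and 259 CPM with DMSO and 427, 419 and 422 CPM with THZ1. All THZ1 libraries lay above all DMSO libraries, with a log2 fold change of 0.65 ± 0.07 (SE) and an adjusted p of 9.28e-11. RRN3, the factor that ties RNA polymerase I to its promoter complex, had 93.8, 97.1 and 95.1 CPM with DMSO and 203, 176 and 179 CPM with THZ1, a rise of 0.96 ± 0.07 (adjusted p = 1.77e-13). Here too the groups were apart. UBTF overlaps a long noncoding RNA gene, ENSG00000260793, on the other strand, with 35 to 47 counts with DMSO and 422 to 439 with THZ1. Whether the counting used strand is not given in the sources used here, so reads of such overlapping genes cannot be told apart. RRN3 has 5 annotated pseudogenes that could share reads, and its locus overlaps PDXDC1 on the other strand, whose counts were lower with THZ1 (721 to 845 against 377 to 433).

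The members of the small nucleolar ribonucleoproteins moved in different directions. FBL, the methyltransferase of the box C/D particles, had 257, 239 and 319 CPM with DMSO and 115, 98.7 and 109.8 CPM with THZ1, changing on the log2 scale by -1.33 ± 0.09 (adjusted p = 3.12e-15). NOP58, a scaffold protein of the same particle, had 204, 199.8 and 217 CPM against 173, 157 and 159 CPM, a smaller change of -0.35 ± 0.07 (adjusted p = 3.78e-05). Their partner NOP56 went the other way. It had 342, 330.3 and 376 CPM with DMSO and 1075, 1075 and 1036 CPM with THZ1, so that every treated library lay far above every control. Its log2 fold change was 1.60 ± 0.07 (adjusted p = 9.34e-20), and 1.29 on the deposited FPKM scale. NOP56 lies on chromosome 20 (2633239 to 2639039 in GRCh37, plus strand) and hosts small nucleolar RNA genes in its introns, whose own counts were 0 in every library. Annotated exons cover 4950 of its 5801 bases, so reads from introns kept in some transcripts can count toward the gene.

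Of the remaining modification factors, DKC1, the pseudouridine synthase of the box H/ACA particles, fell most. It had 234, 227 and 241 CPM with DMSO and 69.7, 70.9 and 64.7 CPM with THZ1, changing on the log2 scale by -1.77 ± 0.07 (adjusted p = 3.7e-20). NAT10, which acetylates ribosomal RNA, had 187, 188 and 185 CPM against 88.4, 80.0 and 76.6 CPM, a change of -1.19 ± 0.07 (adjusted p = 1.05e-15). NOLC1, a chaperone of these particles, was not called: it had 384, 397 and 395 CPM with DMSO and 380.3, 363 and 372 CPM with THZ1, with a log2 difference of -0.08 (95% interval -0.21 to 0.06). The levels of NOLC1 did not overlap, yet its sign turned under 2 alternatives without a call. It was called lower under 5 others, among them the deposited FPKM scale at -0.37 (limma, adjusted p = 0.00347), so its call depends on the setting. In this group of 6, 4 were lower, 1 was higher and the median was -0.77. Over all genes tested 41.1% were lower and 43.5% higher, and over the protein-coding ones 47.6% and 36.3%.

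The abundant proteins with roles at several steps were mostly lower. NCL encodes nucleolin, which binds nascent ribosomal RNA, and lies on chromosome 2 (232318242 to 232348352 in GRCh37, minus strand). It had 1734, 1666 and 1780.1 CPM with DMSO and 423, 417 and 426 CPM with THZ1, changing on the log2 scale by -2.03 ± 0.07 (adjusted p = 1.58e-22). NPM1 encodes nucleophosmin, the main histone and ribosomal protein chaperone of the nucleolus, on chromosome 5 (170814120 to 170838814, plus strand). It had 1502, 1461 and 1601 CPM with DMSO and 553, 493 and 499 CPM with THZ1, a change of -1.56 ± 0.07 (adjusted p = 3.03e-19). Both genes thus had every THZ1 library far under every DMSO library. The annotation names 49 pseudogenes of NPM1, which could take up some of its reads.

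NPM3, a smaller relative of nucleophosmin, rose while NPM1 fell. NPM3 had 65.1, 54.5 and 77.7 CPM with DMSO and 122, 122 and 123 CPM with THZ1, changing on the log2 scale by 0.89 ± 0.09 (adjusted p = 1.4e-10), and its DMSO libraries were the more spread. The helicase DDX21 had 386, 417 and 347 CPM against 331, 315 and 312 CPM, a modest change of -0.26 ± 0.07 (adjusted p = 0.00102), which lost its call under 2 of 16 alternatives. LYAR, a zinc-finger protein of the nucleolus, fell by 0.99 on the log2 scale.

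**Figure D3:**
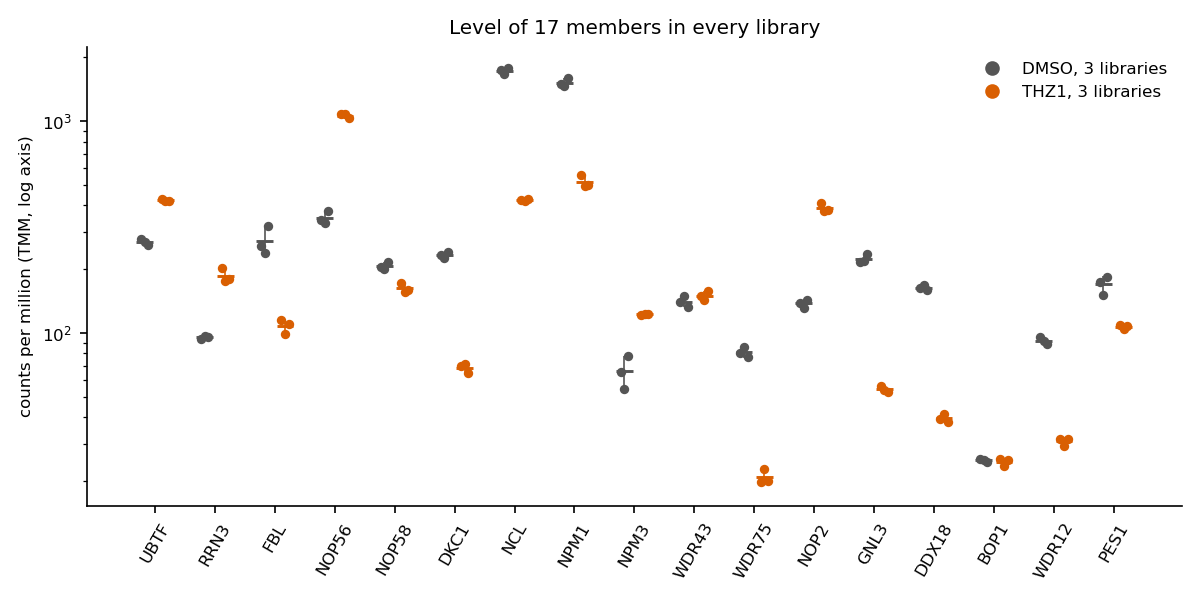
TMM-scaled CPM on a log axis for 17 members in each of the 3 DMSO (grey) and 3 THZ1 (orange) libraries, with points for libraries, horizontal lines for means and vertical lines for 1 SD. NCL falls from 1666 to 1780.1 to 417 to 426 CPM and NOP56 rises from 330.3 to 376 to 1036 to 1075 CPM, whereas BOP1 and WDR43 overlap between groups.

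The small subunit processome had 10 members, of which 7 were lower, 1 was higher and 2 were not called, with a median of -0.84. Beside this, 41.1% of all genes tested and 47.6% of the protein-coding ones were lower, and 43.5% and 36.3% were higher. WDR75 belongs to the UtpA complex, which binds the 5′ end of the precursor, and it fell most. Its levels were 80.2, 85.5 and 76.6 CPM with DMSO and 19.7, 22.8 and 19.9 CPM with THZ1, changing on the log2 scale by -1.96 ± 0.10 (adjusted p = 3.07e-18). WDR43, of the same complex, had 140.3, 149 and 132 CPM against 149.5, 142 and 157 CPM. These values overlapped, and the log2 difference was 0.09 (95% interval -0.06 to 0.24, adjusted p = 0.248). UTP4 was not called either, with 107, 111 and 112 CPM with DMSO and 105, 99.5 and 101 CPM with THZ1, a difference of -0.11 (95% interval -0.26 to 0.04, adjusted p = 0.165). UTP4 was called lower under 5 alternatives, among them FPKM at -0.21 (limma, adjusted p = 0.0273), and turned sign under 2 without a call. WDR43 was called higher under 3, turned sign under 4 and was called lower in 1 of these, with library sizes alone (-0.16, adjusted p = 0.0431). UTP15, the remaining UtpA member, had 36.0, 32.4 and 34.1 CPM against 22.6, 28.0 and 22.6 CPM, a change of -0.49 ± 0.11 (adjusted p = 0.000137). Members of this complex therefore ranged from near 0 to a fall of about 1.96 on the log2 scale. UTP4 overlaps CHTF8 and SNTB2, whose counts were lower with THZ1, and UTP15 overlaps ANKRA2 on the other strand, with 82 to 104 counts with DMSO and 376 to 447 with THZ1.

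RRP9, a protein of the U3 particle that guides the first cuts, had 74.5, 67.6 and 83.5 CPM with DMSO and 22.5, 19.2 and 21.8 CPM with THZ1, changing on the log2 scale by -1.83 ± 0.10 (adjusted p = 7.34e-17). NOP14 and NOC4L form a complex with each other and moved in opposite directions. NOP14 had 152, 154 and 166 CPM against 81.7, 89.8 and 88.1 CPM, a change of -0.87 ± 0.07 (adjusted p = 2.79e-12). NOC4L had 43.4, 39.8 and 49.4 CPM against 50.9, 57.7 and 55.9 CPM, a small rise of 0.31 ± 0.09 (adjusted p = 0.003) that lost its call under 4 alternatives. The groups of NOC4L lay close, with 49.4 CPM in the highest DMSO and 50.9 CPM in the lowest THZ1 library. NOP14 shares its locus with NOP14-AS1 on the other strand, which had 1026 to 1094 counts with DMSO and 636 to 657 with THZ1. The helicase DDX10, the scaffold protein UTP20 and IMP4, which helps pair the U3 RNA with the precursor, fell by 1.17, 1.14 and 0.81.

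Among the roles with falls, the late steps of the small subunit had the median nearest to 0. Of 6 members, 5 were lower, none was higher and TSR1 was not called, with a median of -0.40. The shares over all genes tested were 41.1% lower and 43.5% higher, and over the protein-coding ones 47.6% and 36.3%. BYSL, which is needed for the release of the precursor from the nucleolus, fell most, from 66.4, 62.9 and 73.6 CPM to 36.6, 36.0 and 37.7 CPM (log2 fold change -0.88 ± 0.09, adjusted p = 1.67e-10). RRP12, an export factor, fell by 0.69, and LTV1, an assembly factor of the small subunit head, fell by 0.50. TSR1, a GTPase-like factor of the late particle, had 158, 164 and 155 CPM with DMSO and 167, 161 and 159 CPM with THZ1. It shares its locus with SRR on the other strand, with 815 to 911 counts with DMSO and 395 to 451 with THZ1. The groups overlapped for TSR1, with a difference of 0.03 (95% interval -0.11 to 0.16, adjusted p = 0.734) whose sign turned under 7 alternatives. It was called higher under 2 alternatives, with upper quartile factors and when each library had to hold at least 10 counts, and lower with library sizes alone (-0.22, adjusted p = 0.00363).

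PNO1 and NOB1 act together at the last cut of the small subunit RNA, which the endonuclease NOB1 makes. PNO1 had 40.3, 44.01 and 44.9 CPM against 32.2, 34.7 and 37.4 CPM, a change of -0.31 ± 0.10 (adjusted p = 0.00412) with no overlap, and lost its call under 2 alternatives. NOB1 had 109, 92.1 and 116 CPM against 94.5, 93.9 and 89.7 CPM. Here DMSO replicate 2 lay between the THZ1 libraries, the adjusted p was 0.0316 for a difference of -0.19 ± 0.08, the call was lost under 6 alternatives, and with upper quartile factors the difference was 0.00 and not called. NOB1 overlaps NQO1-DT on the other strand, with 562 to 760 counts with DMSO and 279 to 323 with THZ1.

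Large subunit assembly was the biggest group, with 17 members, of which 12 were lower, 4 were higher and BOP1 was not called, with a median of -0.64. For comparison, 41.1% of all genes tested and 47.6% of the protein-coding ones were lower, and 43.5% and 36.3% were higher. The helicase DDX18 had the lowest log2 fold change of all members. It had 162, 169 and 159 CPM with DMSO and 39.3, 41.3 and 38.0 CPM with THZ1 (-2.05 ± 0.08, adjusted p = 6.89e-21). GNL3, the nucleolar GTPase nucleostemin, had 216, 219 and 235 CPM against 56.3, 53.7 and 52.8 CPM (-2.04 ± 0.08, adjusted p = 2.02e-21). For both genes every THZ1 library lay far under every DMSO library. GNL3 lies on chromosome 3 and overlaps PBRM1 and GLT8D1 on the other strand, whose counts were also lower (1019 to 1435 against 352 to 356, and 496 to 528 against 229 to 249).

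PES1, BOP1 and WDR12 form the PeBoW complex, which is needed to process the large subunit RNA, and their transcripts changed unequally. WDR12 had 95.2, 91.7 and 88.2 CPM with DMSO and 31.6, 29.3 and 31.7 CPM with THZ1, changing on the log2 scale by -1.57 ± 0.09 (adjusted p = 5.72e-17). PES1 had 174, 151 and 183 CPM against 108, 104 and 108 CPM, a change of -0.66 ± 0.08 (adjusted p = 2.07e-09). BOP1 had 25.4, 25.1 and 24.6 CPM against 25.2, 23.5 and 25.1 CPM, which overlapped, with a difference of -0.02 (95% interval -0.24 to 0.20, adjusted p = 0.858). The sign for BOP1 was positive under 4 alternatives without a call, and it was called lower with library sizes alone (-0.27, adjusted p = 0.0235).

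NOC2L and NOC3L, which bind each other on the large subunit precursor, also parted. NOC3L had 40.02, 45.5 and 43.9 CPM against 15.3, 14.7 and 15.5 CPM (log2 fold change -1.51 ± 0.11, adjusted p = 5.25e-14). NOC2L had 255, 234 and 265 CPM against 308, 302 and 293 CPM, a small rise (0.26 ± 0.07, adjusted p = 0.00077) that lost its call under 4 alternatives. It overlaps SAMD11 on the other strand, with 400 to 511 counts with DMSO and 506 to 558 with THZ1.

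The other higher members of this group were NOP2, PPAN and GRWD1. NOP2, a methyltransferase of the large subunit RNA, had 138, 132 and 144 CPM with DMSO and 409.6, 374 and 381 CPM with THZ1, changing on the log2 scale by 1.496 ± 0.07 (adjusted p = 5.22e-19), a 2.82-fold rise. It kept a log2 fold change of 1.24 or more in every alternative and was the only higher member with an E-box in its window. GRWD1, a chaperone of ribosomal proteins and histones, had 110.0, 108 and 109.8 CPM against 141, 139 and 133 CPM (0.33 ± 0.07, adjusted p = 7.25e-05). The groups of GRWD1 did not overlap, and its call was lost with library sizes alone. GRWD1 shares part of its locus with KCNJ14 on the same strand, with 39 to 53 counts with DMSO and 110 to 124 with THZ1.

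PPAN had the highest log2 fold change of all members, from the lowest level. It had 2.56, 2.29 and 3.04 CPM with DMSO and 12.1, 9.27 and 10.4 CPM with THZ1 (2.01 ± 0.21, adjusted p = 2.58e-10). Its value is uncertain, because PPAN shares exons with a readthrough transcript into P2RY11 and counting can leave such shared reads unassigned. The readthrough gene had 0 or 1 count in each library, and P2RY11 itself had 355 to 486 counts with DMSO and 626 to 671 with THZ1. On the deposited FPKM scale PPAN changed by 1.07 on log2(FPKM + 1).

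The rest of the group was lower, by various amounts. NIP7, an adaptor for the exosome, had 94.5, 94.9 and 96.0 CPM against 85.5, 86.9 and 81.3 CPM (-0.17 ± 0.07, adjusted p = 0.036), lost its call under 6 alternatives and was at 0.02 with upper quartile factors. NOP16 had 115, 104 and 126 CPM against 99.8, 91.5 and 96.1 CPM (-0.26 ± 0.08, adjusted p = 0.00281), and the helicase DDX56 had 136, 126 and 147 CPM against 112, 106 and 106 CPM (-0.34 ± 0.07, adjusted p = 0.000126). Both were lower without overlap, but NOP16 lost its call under 2 alternatives and DDX56 under 1. EBNA1BP2, MRTO4, RRP1 and RRS1, also large subunit factors, fell by 1.52, 0.95, 0.84 and 0.64 and remained called under every alternative.

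Ratios between partners were then taken within each library, where the scaling between libraries plays no part. Of 12 pairs from the same complex or family, 11 had ratios that did not overlap between the groups. Of all pairs of genes tested 83.7% were apart in this way, and of all pairs of members 88.5%, so the count lies near the background. The pairs were chosen with earlier results known, and their sizes and directions are given as descriptions. The exact two-sided permutation test gave p = 0.1 for each of the 11, the smallest that 3 against 3 allows, and 0.109 after Benjamini-Hochberg adjustment over the 12 pairs, so no pair could pass a threshold of 0.05 by this test. The widest shift of the 12 was within the box C/D core. The log2 ratio of FBL to NOP56 counts was -0.41, -0.46 and -0.24 with DMSO and -3.23, -3.44 and -3.24 with THZ1, a difference of -2.93. NOP56 to NOP58 went from 0.74, 0.72 and 0.79 to 2.64, 2.78 and 2.701, a difference of 1.95, and FBL to NOP58 differed by -0.98. The proportions of these 3 transcripts thus differed between the groups in every library.

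The nucleophosmin relatives NPM1 and NPM3 had log2 ratios of 4.53, 4.74 and 4.36 with DMSO and 2.18, 2.01 and 2.02 with THZ1, a difference of -2.47. For WDR43 to WDR75 the values were 0.81, 0.80 and 0.79 against 2.92, 2.63 and 2.97, a difference of 2.04. In the PeBoW complex, BOP1 to WDR12 changed by 1.55, PES1 to WDR12 by 0.91 and PES1 to BOP1 by -0.64. The ratio of NOC2L to NOC3L changed by 1.76, of NOP14 to NOC4L by -1.18 and of UTP4 to UTP15 by 0.38. Only PNO1 to NOB1 overlapped, with -1.44, -1.06 and -1.37 against -1.55, -1.43 and -1.26 (difference -0.12, exact p = 0.6). Of the 8 pairs with both genes in the FPKM table, 7 had ratios there that did not overlap. The share over all pairs was taken on counts only, so this number has no background on the FPKM scale. The sorted values of that table are also nearly identical between libraries of a treatment, by a step that is not given.

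**Figure D4:**
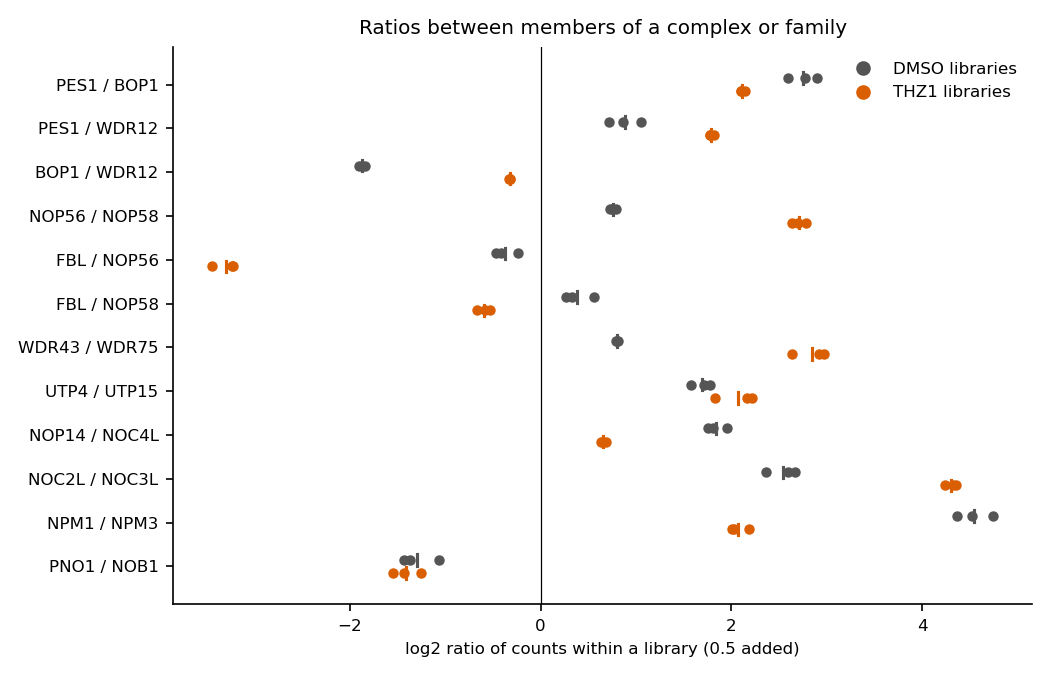
Log2 ratio of the counts of 2 members within each library (0.5 added to each count) on the horizontal axis, with 1 point per library, short lines for group means, grey for DMSO and orange for THZ1. Grey and orange points are apart in 11 of 12 pairs and overlap for PNO1 to NOB1.

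Level and gene structure were weakly related to the response. Across the members, the Spearman correlation of the log2 fold change was -0.11 with the mean CPM in DMSO (n = 46 genes) and -0.08 with the mean FPKM in DMSO (n = 43). It was -0.25 with the length of the canonical transcript's span on the genome, -0.09 with its number of exons and 0.03 with its transcript length (n = 45, without BOP1). Genes measured in the same libraries are not independent replicates, so these values are descriptions. The longest span, of 275859 bases in DDX10, went with a fall of 1.17 and the shortest, of 1720 bases in the single-exon gene RRS1, with a fall of 0.64.

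A wider list of 121 other ribosome biogenesis genes, put together by role from general knowledge, gave the setting. Of these, 118 were matched and tested, and ZNHIT3, AATF and DDX52 were not matched. In this list 79 were lower (66.9%), 18 were higher (15.3%) and 21 were not called, with a median of -0.55, close to the -0.57 of the members. Of all genes tested, 41.1% were lower and 43.5% higher, and of the protein-coding ones 47.6% and 36.3%. Falls of at least 1.5 were seen in 14 of the 118, where 12.9% of all genes tested and 13.3% of the protein-coding ones fell that far. Rises of that size were seen in 3, where 24.6% and 15.3% rose that far. Summed as unscaled CPM, they went from 12326 ± 69.3 with DMSO to 8132 ± 79.3 with THZ1 (SD, n = 3), a ratio of 1.52. This ratio, too, would be smaller on the TMM scale.

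Within that list the extremes by role were as follows. RNA polymerase I initiation ran from TCOF1, the ribosomal DNA factor treacle (-1.67 ± 0.07, adjusted p = 1.73e-19), to TAF1C, which was not called (0.15, adjusted p = 0.0613). Among the modification factors, GAR1, a partner of DKC1 in the H/ACA particles, was lowest (-2.03 ± 0.11, adjusted p = 5.55e-17), whereas NAF1, an assembly factor of the same particles, was not called (-0.02, adjusted p = 0.85). For the small subunit processome, WDR3 was lowest (-2.20 ± 0.10, adjusted p = 1.35e-19) and IMP3, a partner of IMP4, was highest (0.99 ± 0.07, adjusted p = 1.37e-13).

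The late small subunit factors ran from NOP9 (-1.13 ± 0.08, adjusted p = 8.18e-14) to the kinase RIOK3 (1.59 ± 0.08, adjusted p = 1.73e-18), with 3 lower and 3 higher. Large subunit factors ran from RRP1B (-1.67 ± 0.08, adjusted p = 4.95e-19) to WDR74. WDR74 had 84.7, 75.2 and 96.6 CPM with DMSO and 573, 593 and 575 CPM with THZ1, changing on the log2 scale by 2.76 ± 0.08 (adjusted p = 2.58e-24) and the highest of both lists. Of the exosome and nuclease genes, MPHOSPH6 was lowest (-2.09 ± 0.13, adjusted p = 5.47e-16) and EXOSC6, a subunit of the exosome ring, was highest (1.02 ± 0.09, adjusted p = 5.24e-12). NOP9 overlaps CIDEB, which was lower, and WDR74 overlaps STX5-DT, which was higher, both on the other strand. On its own strand WDR74 also overlaps the small nuclear RNA gene RNU2-2P, which had 0 counts in every library.

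**Figure D5:**
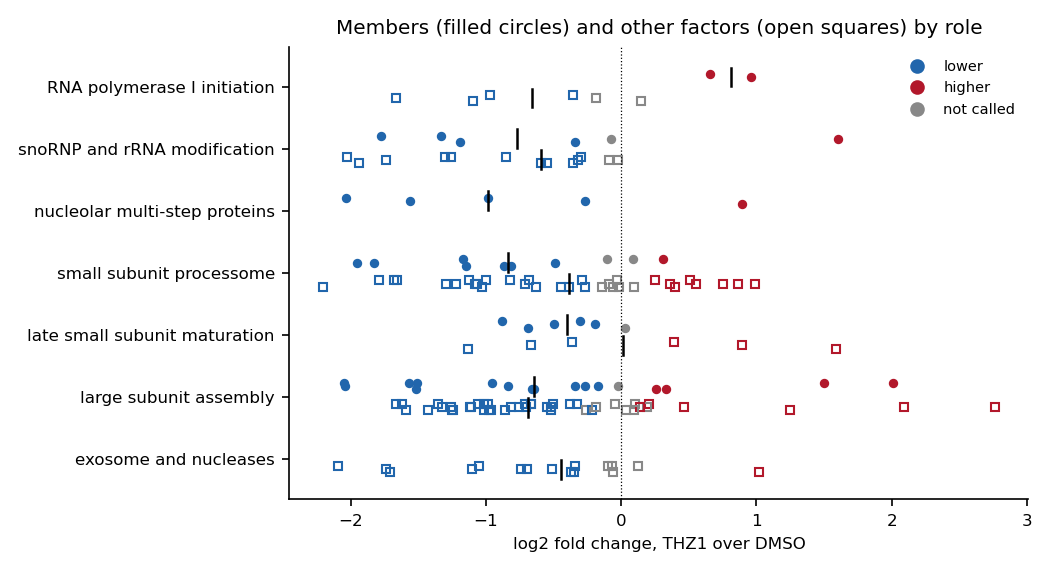
Log2 fold change, THZ1 over DMSO, of the 46 members (filled circles) and 118 other ribosome biogenesis genes (open squares) by role, with black lines for medians; blue genes were called lower, red higher and grey were not called. Medians of members and other factors lie between -0.99 and 0.01 in every role except RNA polymerase I initiation, where the members stand at 0.81.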

How the data were processed

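RNA-SEQ of NALM6 cells (3 DMSO, 3 THZ1) was analysed. The authors filtered the reads, mapped them to GRCh37 with STAR and deposited raw counts per gene made with htseq-count. The annotation and strand setting of the counting are not given in the sources used here, so reads of overlapping genes cannot be told apart. A second deposited table holds log2 values of FPKM from RSEM, read as log2(FPKM + 1). Within a treatment, its sorted values are nearly identical between libraries, by a step that is not given. The design was written for linear FPKM, and values were taken back to that scale where needed. The authors' own fold changes and p-values in that table were not used.

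Genes were filtered with filterByExpr (minimum count 10, minimum total 15), scaled by TMM and tested two-sided with edgeR 4.0.16 (quasi-likelihood, R 4.3.3), and p-values were adjusted by Benjamini-Hochberg over the genes tested. The steps were tested on simulated counts, in which few genes changed and rises and falls were equally likely. That setting differs from these data, so it does not check TMM scaling under a change this broad. The depth of 7876402 to 11164840 counts leaves counting error small for all members but PPAN. Coordinates and overlaps come from GENCODE 44 lifted to GRCh37. Alternatives comprised DESeq2 1.42.0, scaling by library sizes alone, by RLE or by upper quartile factors, other filters, a replicate block, each library left out, and limma 3.58.1 on FPKM.

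The members, lists, pairs and motifs were chosen with earlier results of these data known. Named with values are, per role, the member with the highest level and both extremes, all members that were not called, higher, in a pair or changed by an alternative, and the extremes of the other list. GNL3, RRP9, NAT10, UTP20 and the genes given by their log2 change alone were added after their values were seen.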

Additional observations from a re-analysis of the deposited data

How the results depend on the processing

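Across 16 alternatives, 32 of the 41 called members kept their call and direction wherever they had a value. On deposited FPKM the filter removed none of the 16730 genes. The fits with and without it are thus the same, yet each is counted as an alternative here and above. The number of lower members ranged from 26 to 37 and of higher members from 6 to 11. With the replicate block the counts were 32 and 9, and no numbered pair of libraries deviated together (correlations -0.0040, 0.00097 and 0.021). The median of the members was -0.50 with DESeq2 and with RLE factors, -0.44 with at least 10 counts in every library, -0.66 with no filter, -0.38 with upper quartile factors, -0.82 with library sizes alone, -0.73 on deposited FPKM with or without a filter and -0.79 with a pseudocount of 0.1. Leaving out each library gave -0.65 (without DMSO replicate 2) to -0.53. The median of all genes moved to 0.22 with upper quartile factors, -0.22 with library sizes alone, 0.45 with no filter, and -0.15 or -0.18 on FPKM. Members lower by at least 1.5 numbered 6 with upper quartile factors and 6 with at least 10 counts everywhere. Higher other factors numbered 11 with library sizes alone. The ratio of the sums was 1.61 on FPKM and 1.27 without NPM1 and NCL, and 7 pairs were apart on FPKM, where only 8 could be formed. The cause of these shifts was not tested, beyond the fewer genes or pairs available.

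Signs turned only in members near 0. BOP1 was at 0.047 (DESeq2, RLE), 0.11 (at least 10 counts in every library) and 0.17 (upper quartile). Under the last 2 of these NOLC1 was at 0.057 and 0.12, and UTP4 at 0.025 and 0.086. WDR43 was at -0.070 on FPKM, -0.071 with a pseudocount of 0.1 and -0.16 with library sizes alone. TSR1 was at -0.13 on FPKM, -0.22 with library sizes alone, -0.061 with no filter and -0.013 to 0.029 when a library was left out. With upper quartile factors NOB1 was at 0.0020 and NIP7 at 0.023.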
